A study of Homo sapiens with 8 samples.

Results

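Clustered histone genes are the genes of the HIST1 to HIST4 clusters that encode the linker histone H1 and the core histones H2A, H2B, H3 and H4. Members were the rows of the deposited count table whose symbol begins with HIST1H, HIST2H, HIST3H or HIST4H, with pseudogene symbols (ending in P, or in PS plus digits) left out. Of 106 rows with such a prefix, 16 were pseudogene rows, which left 90 members among the 63677 rows of the table. These 90 rows carried 75 different symbols, and the 15 rows that repeat a symbol were all at 0. By type there were 6 rows of H1, 21 of H2A, 29 of H2B, 17 of H3 and 17 of H4. The reference annotation lists 5 of the remaining symbols as pseudogenes (HIST2H2BA, HIST2H2BB, HIST2H2BC, HIST2H2BD and HIST3H2BA), although their symbols do not end that way, and they were kept under the symbol rule.

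The cells were Jurkat, an established human line of T-cell acute lymphoblastic leukaemia (T-ALL), in a derivative named TAL1-FKBP12 and grown with tetracycline-free serum. TAL1 is a transcription factor expressed in this leukaemia, and FKBP12 is the tag through which dTAG-13 recruits a cellular ubiquitin ligase so that the tagged protein is degraded. All 4 groups carried this derivative and were harvested at 24 hours after DMSO (the solvent), dTAG-13, GSI (the usual short name of a gamma-secretase inhibitor, which blocks NOTCH activation) or both drugs together, called the combination here. Each group had 2 libraries, 8 in all. The titles of all 8 samples carry the designation SC3, which the labels do not explain. They give no doses and do not say how the line was made or whether it is 1 clone. Nor do they say whether the 2 replicates of a group were separate cultures, so every p-value below speaks only of library-to-library spread, possibly technical. In bulk RNA, fewer cells of a type and less RNA per cell cannot be told apart.

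Most clustered histone genes are switched on as cells enter S phase, when new chromatin needs histones in bulk. Their mRNAs do not end in a poly(A) tail. They end just after a short conserved stem-loop, which is bound by the stem-loop binding protein SLBP and cut with the help of the U7 small nuclear RNP. A subset of the same genes can also be transcribed past the stem-loop and polyadenylated, a form best known in differentiating cells. How the total RNA of these libraries was selected, by poly(A) tail or by removal of ribosomal RNA, is not stated in the sources at hand.

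Histone transcripts cut just after the stem-loop end without a tail. The stem-loop is therefore shown for the tested members in whose GENCODE v29 transcripts a match was found. The search used a single fixed pattern of 16 bases after the coding sequence, so a stem-loop with other letters would be missed. HIST1H4C, with 51 bases after its coding sequence, gave no match. Letters are those of the transcript's DNA, 5′ to 3′, and the capitals mark the stem-loop of 16 bases with 5 bases on each side.
HIST1H2AC: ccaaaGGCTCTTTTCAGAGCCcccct
HIST1H2AG: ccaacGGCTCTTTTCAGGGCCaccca
HIST3H2A: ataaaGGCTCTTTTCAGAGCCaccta
HIST2H2BE: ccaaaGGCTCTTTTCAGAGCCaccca
HIST1H2BC: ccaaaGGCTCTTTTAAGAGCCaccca
HIST1H2BD: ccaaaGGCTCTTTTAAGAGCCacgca
HIST1H2BH: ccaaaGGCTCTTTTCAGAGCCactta
HIST1H4I: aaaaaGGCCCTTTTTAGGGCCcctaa
The annotated transcript of HIST1H2AC ran on for up to 1128 bases after its stem-loop, and that stretch held 2 copies of the polyadenylation signal AATAAA. HIST1H2AG ran on for 1761 bases with 2 such signals, and HIST2H2BE for 1729 bases with 1. The HIST1H2BD transcript with a stem-loop ended 39 bases after it, with 1 signal in that stretch. A second HIST1H2BD transcript ran on for 384 bases after its coding sequence, and 1 of HIST1H2BJ for 569 bases. No match to the pattern was found in either. In GENCODE v29, 22 of the 75 symbols had a transcript of at least 100 bases past a matched stem-loop, a count that leaves out HIST1H2BD and HIST1H2BJ. Of the 22, 17 had counts and 7 were tested. Together the 22 held 1322 of the 3704 member counts (35.69%), with a median of 25.5 counts a symbol. The 34 symbols whose model ends at the stop codon, so that it shows no stem-loop, held 1616 counts (43.63%), of which HIST1H2BK alone gave 850. Their median was 9 counts. These transcript models are not necessarily those of the authors' annotation, whose version the labels do not name.

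Clustered histone mRNA was scarce in all 8 libraries. Total counts ran from 17544319 to 22180009 a library, and the 90 members together took 364 to 515 of them, or 0.00189% to 0.00249%. In CPM (counts per 1000000 counts of a library, with library sizes scaled by TMM factors), the summed level of the 90 rows ran from 18.8 in DMSO replicate 2 to 24.1 in combination replicate 2. The 12 replication-independent histone genes, which make polyadenylated mRNA throughout the cell cycle, summed to between 2111 and 2488 CPM in the same libraries. Among them H2AFZ, which encodes the variant H2A.Z, ranged from 357 to 473 CPM, and H3F3B, which encodes H3.3, from 311 to 371 CPM. The highest level of any member in any library was 6.76 CPM, for HIST1H2BK. A list of 25 RNAs that lack a poly(A) tail was also scarce, with a summed level of 5.95 to 9.45 CPM. Within that list RMRP, the RNA of the RNase MRP particle, had 10 counts over all 8 libraries, RPPH1, the RNA of RNase P, had 44, and RN7SK, the scaffold of the 7SK particle, had 70. These counts describe the RNA that was sequenced, and the part played by library selection in the low histone levels was not tested.

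Of the 90 rows, 57 had at least 1 count and 33 had 0. The 57 rows fell into 4 of H1, 13 of H2A, 18 of H2B, 11 of H3 and 11 of H4. Only 18 members passed edgeR's filter on low counts (filterByExpr), namely 1 of H1, 4 of H2A, 9 of H2B, 2 of H3 and 2 of H4. The tested members had 41 to 850 counts over all libraries, with a median of 111, and 10 of the 18 averaged under 1 CPM. The 39 others with counts had 1 to 47, with a median of 13. A gene that passed such a filter mainly through the group where it was high was bound to differ, so the counts over the 18 below are given as a description only. HIST1H2BK alone supplied 22.95% of all member counts, the 7 most abundant members supplied 58.45%, and the 18 tested members supplied 84.21%.

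**Figure D1:**
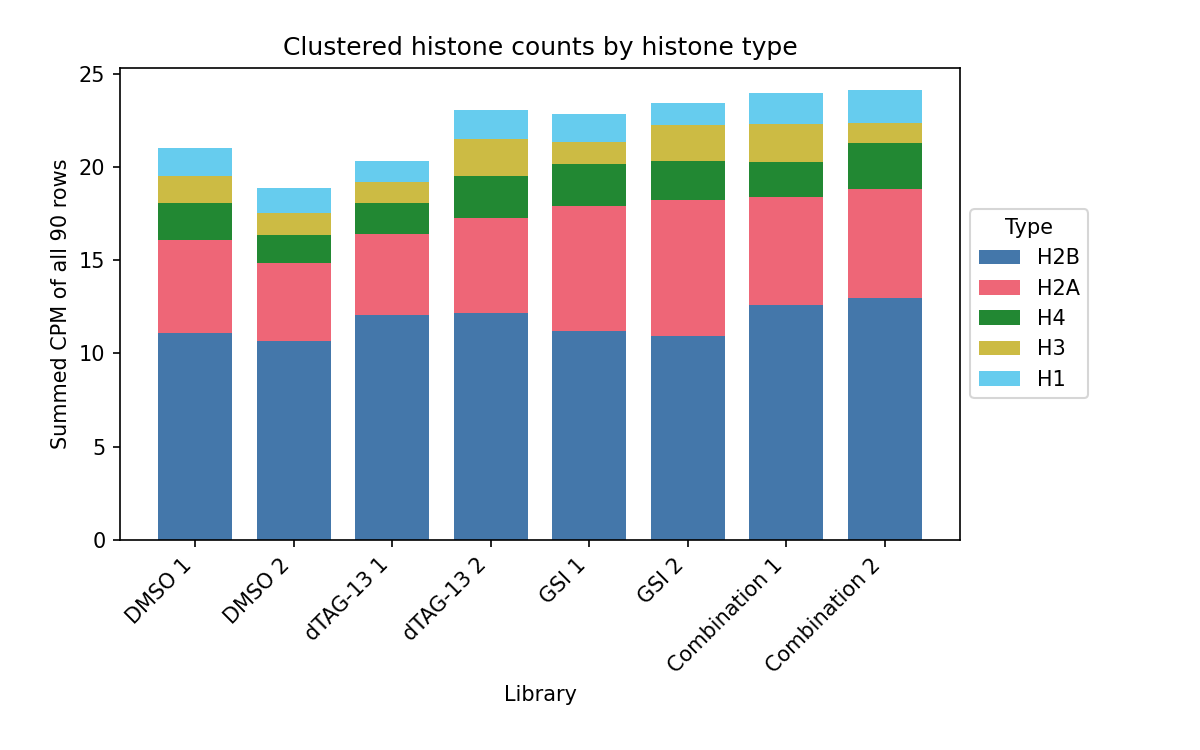
Stacked bars give the summed CPM of the 90 rows in each of the 8 libraries (x axis), divided by histone type. H2B takes the largest share in every library, and the H2A layer is thickest in the 2 GSI libraries, at 6.71 and 7.28 CPM.

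By type, H2B held 1958 of the 3704 counts (52.86%), H2A 920 (24.84%), H4 334 (9.017%), H3 250 (6.749%) and H1 242 (6.533%). The H2B counts include 257 (6.938% of all member counts) from rows that the reference annotation calls pseudogenes. The shares by type are of reads, so they follow transcript length as well as abundance. They do not mirror the protein, in which the core histones are made in equal numbers. The stacked bars by type show H2A and H2B together making up most of each library's histone signal.

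The summed H2A level was 4.97 and 4.18 CPM in DMSO, 4.33 and 5.08 in dTAG-13, 6.71 and 7.28 in GSI and 5.77 and 5.80 in the combination. All 4 libraries with GSI lay above all 4 without it, and the 2 with GSI alone were highest. The summed H2B level was 11.1 and 10.7 CPM in DMSO, 12.1 and 12.2 in dTAG-13, 11.2 and 10.9 in GSI and 12.6 and 12.99 in the combination. Here the 4 libraries with dTAG-13 lay above the 4 without it. Each of these separations depended on 1 member. Without HIST1H2AC the H2A sums were 3.09 to 4.5 CPM in the libraries without GSI and 4.24 to 5.45 CPM in those with it, and overlapped. Without HIST1H2BK the H2B sums were 5.64 to 8.01 CPM with dTAG-13 and 6.17 to 7.60 CPM without it, and overlapped. The H3 sums spanned 1.05 to 2.05 CPM and the H4 sums 1.5 to 2.49 CPM, and neither type separated the libraries by drug. H1 sums were 1.15 to 1.77 CPM, with both combination libraries highest, at 1.68 and 1.77. Over all types the means were 19.9 ± 1.54 CPM in DMSO, 21.7 ± 1.92 in dTAG-13, 23.1 ± 0.447 in GSI and 24.0 ± 0.103 in the combination (SD, n = 2 each). With HIST1H2BK and HIST1H2AC both left out, the remaining rows summed to 13.4 to 15.7 CPM in the 4 libraries without GSI and 16.0 to 17.8 CPM in the 4 with it, which did not overlap. No test was made on these sums.

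Among H1 genes, which encode the linker histone that binds DNA between nucleosomes, HIST1H1C was the only tested member. It had 18 and 22 counts in DMSO, 23 and 24 in dTAG-13, 29 and 20 in GSI and 32 and 30 in the combination. Both combination libraries were above the other 6, at 1.49 and 1.44 CPM, while the log2 fold change against DMSO was 0.52 with an SE of 0.30 and an adjusted p of 0.542 in edgeR's quasi-likelihood test. HIST1H1B, the next most abundant H1 gene, had 2 and 4 counts in DMSO, 0 and 2 in dTAG-13, 1 and 1 in GSI and 3 and 3 in the combination, too few to test. It had 16 counts in all, and HIST1H1E and HIST1H1D had 15 and 13. HIST1H1A and the testis form HIST1H1T were listed at 0.

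**Figure D2:**
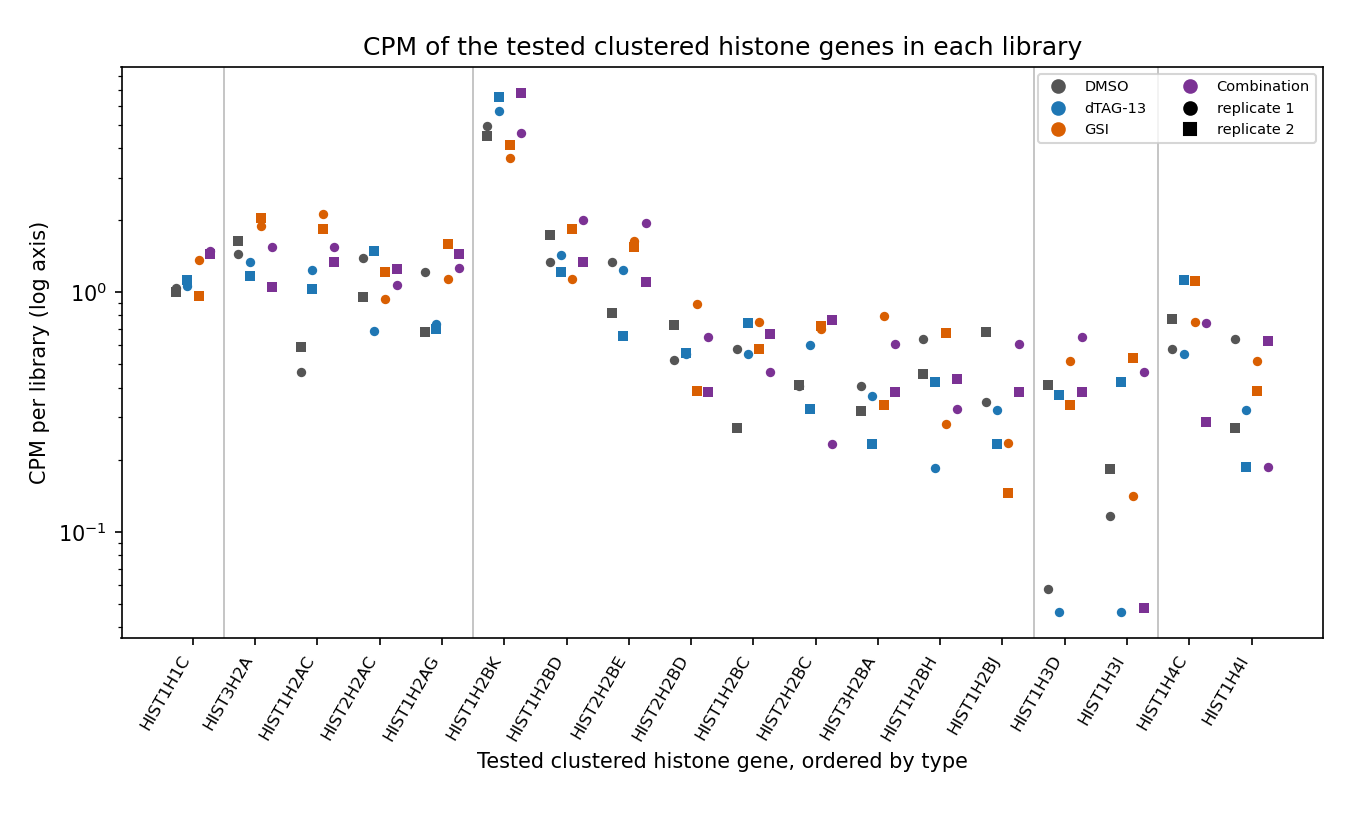
Each point is the CPM (log axis) of 1 of the 18 tested members in 1 library, coloured by treatment and shaped by replicate, with grey lines between histone types. HIST1H2BK stands above all others in every library, and for HIST1H2AC the 2 DMSO points lie below the other 6.

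H2A pairs with H2B in the outer dimers of the nucleosome. HIST1H2AC was the member that separated most by treatment, with 8 and 13 counts in DMSO, 27 and 22 in dTAG-13, 45 and 38 in GSI and 33 and 28 in the combination. In CPM these were 0.462 and 0.590, 1.24 and 1.03, 2.11 and 1.83, and 1.54 and 1.34. The groups did not overlap: DMSO was lowest, then dTAG-13, then the combination, then GSI. The summed level of 3 nuclear-retained RNAs (MALAT1, NEAT1 and KCNQ1OT1) was likewise lowest in DMSO, at 332.1 and 340 CPM, beside 364.9 to 481.4 CPM in the other 6 libraries. None of the 3 was called with GSI, and their part in the result for HIST1H2AC was not tested. The other 3 tested H2A genes showed no such order. HIST3H2A, a member of the small HIST3 cluster, had 1.44 and 1.63 CPM in DMSO, 1.34 and 1.17 in dTAG-13, 1.88 and 2.03 in GSI and 1.54 and 1.05 in the combination. The 2 GSI libraries were highest, and the combination overlapped both other groups. HIST1H2AG had 1.21 and 0.681 CPM in DMSO, 0.737 and 0.699 in dTAG-13, 1.13 and 1.59 in GSI and 1.26 and 1.44 in the combination. DMSO replicate 1 lay inside the range of the GSI libraries. HIST2H2AC, of the HIST2 cluster, had 24 and 21 counts in DMSO, 15 and 32 in dTAG-13, 20 and 25 in GSI and 23 and 26 in the combination, so that both extremes were dTAG-13 libraries. A further 9 H2A rows had 1 to 28 counts each.

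H2B genes supplied the largest number of tested members. HIST1H2BK, which can be made as a polyadenylated mRNA, had 4.91 and 4.49 CPM in DMSO, 5.71 and 6.53 in dTAG-13, 3.61 and 4.10 in GSI and 4.61 and 6.76 in the combination. The dTAG-13 libraries lay above DMSO and the GSI libraries below it, while combination replicates 1 and 2 differed from each other by more than any other pair. HIST1H2BD had 1.33 and 1.73 CPM in DMSO, 1.43 and 1.21 in dTAG-13, 1.13 and 1.83 in GSI and 2.0 and 1.34 in the combination, so that its groups overlapped. HIST2H2BE had 1.33 and 0.817 CPM in DMSO, 1.24 and 0.653 in dTAG-13, 1.64 and 1.54 in GSI and 1.95 and 1.10 in the combination. The GSI libraries were above both DMSO libraries, and the combination overlapped DMSO. HIST1H2BC had 10 and 6 counts in DMSO, 12 and 16 in dTAG-13, 16 and 12 in GSI and 10 and 14 in the combination. HIST1H2BJ had 6 and 15 counts in DMSO, 7 and 5 in dTAG-13, 5 and 3 in GSI and 13 and 8 in the combination, lowest in GSI replicate 2. The other 4 tested H2B rows, HIST1H2BH and the 3 rows that the reference annotation calls pseudogenes (HIST2H2BD, HIST2H2BC and HIST3H2BA), had 70 to 98 counts in all.

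H3 and H4 form the inner tetramer of the nucleosome, and the 17 H3 rows held 250 counts in all and the 17 H4 rows 334. HIST1H3D had 1 and 9 counts in DMSO, 1 and 8 in dTAG-13, 11 and 7 in GSI and 14 and 8 in the combination. Replicate 1 of both DMSO and dTAG-13 had a single count, so the spread within those groups was as wide as the differences between groups. HIST1H3I, with 41 counts in all, ranged from 1 to 11 counts a library, and did not separate the groups. HIST1H3J, with 6 and 5 counts in DMSO, 9 and 4 in dTAG-13, 4 and 7 in GSI and 7 and 5 in the combination, did not pass the filter. HIST1H4C had 10 and 17 counts in DMSO, 12 and 24 in dTAG-13, 16 and 23 in GSI and 16 and 6 in the combination. HIST1H4I had 11 and 6 counts in DMSO, 7 and 4 in dTAG-13, 11 and 8 in GSI and 4 and 13 in the combination. For neither H4 gene did the groups separate. HIST4H4, the single gene of the HIST4 locus, had 47 counts and was not tested.

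Per kilobase of annotated exon, counts over all libraries differed among members by more than an order of magnitude. HIST1H2BK had 2230 counts per kilobase, HIST2H2AC 477, HIST1H1C 308, HIST1H2BD 288, HIST1H4C 285 and HIST3H2A 282. HIST1H2AC had 128, HIST2H2BE 97.5 and HIST1H2AG 80.4, on models that include the long stretch past the stem-loop. The value of HIST1H2BK rests on a model of 381 bases that ends at the stop codon, while RefSeq lists a gene span of 8566 bases. Any reads from beyond the short model would inflate its value, and which model the authors counted is not known here.

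Of the comparisons against DMSO, HIST1H2AC with GSI was the only one in which a member passed the test. Its log2 fold change was 1.88 with an SE of 0.32 and an adjusted p of 0.0126 (edgeR quasi-likelihood test, Benjamini-Hochberg over 15646 genes), higher in both GSI libraries than in both DMSO libraries. DESeq2's Wald test gave 1.89 with an SE of 0.51 and an adjusted p of 0.0127. This was 1 of 18 tested members called higher, beside 0.876% of all tested genes (137 of 15646), and 0 called lower, beside 0.863%, or 1.74% in either direction. DESeq2 called 1 of the 9 members to which it gave an adjusted p, beside 2.36% of its genes. With dTAG-13 the log2 fold change of HIST1H2AC was 1.08 (SE 0.35), under an unadjusted p of 0.05, but its adjusted p was 0.845. With the combination it was 1.43 (SE 0.34), with an adjusted p of 0.073 that fell to 0.0321 when no filter on low counts was applied, a setting that called 0.802% of its genes higher.

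**Figure D3:**
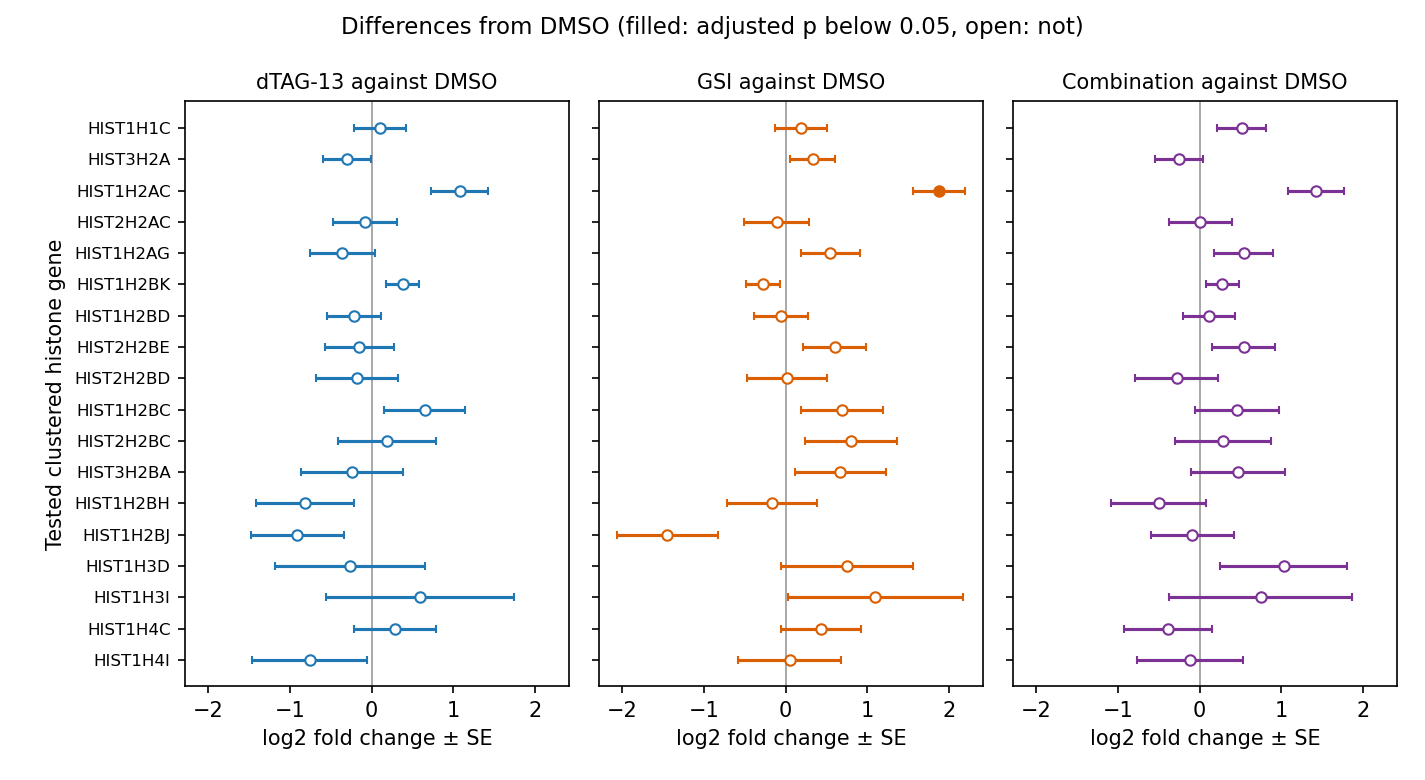
Log2 fold changes against DMSO (x axis, points) with SE (bars) for the 18 tested members (y axis), 1 panel per treatment. The single filled point, HIST1H2AC with GSI at 1.88, marks the only member with an adjusted p below 0.05.

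dTAG-13 alone called no tested member, beside 0.0192% of all genes (3 of 15646, all lower). The 18 log2 fold changes ran from -0.91 for HIST1H2BJ to 1.08 for HIST1H2AC with a median of -0.16, and 7 were above 0, beside 51.9% of all genes. DESeq2 called 0 of the 3 members to which it gave an adjusted p, beside 0.19% of its genes. HIST1H2BK was at 0.38 on the log2 scale (SE 0.20) and did not pass the test.

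With GSI alone the 18 log2 fold changes had a median of 0.39, and 13 lay above 0, beside 51.4% and a median of 0.01 over all genes. The CPM of 5 members were above DMSO in both GSI libraries with no overlap, beside 22.6% of all genes, and 2 were below, beside 20.9%. HIST1H2BJ had the lowest value, at -1.45 (SE 0.62, adjusted p 0.316 in edgeR), and was not called. HIST1H2AG was at 0.55 (SE 0.36) and HIST2H2BE at 0.60 (SE 0.39), and neither passed the test. HIST1H2BK was at -0.28 (SE 0.21), opposite in sign to its value with dTAG-13.

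The combination called no member in edgeR after adjustment, beside 1.31% of all genes (205 of 15646). The median was 0.28, and 12 of the 18 lay above 0, beside 50.5% of all genes. DESeq2 called 0 of 8, beside 1.91% of its genes. HIST1H3D had the second highest fold change, at 1.03, with an SE of 0.78 from the wide replicates given above.

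Set against dTAG-13 alone, the combination differs by GSI, and no member was called, beside 1.21% of all genes (189 of 15646). HIST1H2AC was at 0.34 (SE 0.29, adjusted p 0.660 in edgeR) and HIST1H2AG at 0.90 (SE 0.37, adjusted p 0.327 in edgeR). Fold changes were above 0 for 14 of 18, beside 49.8% of all genes, and DESeq2 called 0 of 5, beside 2.01% of its genes. Against GSI alone, the combination called no member, beside 0.0575% of all genes (9 of 15646). HIST1H2BK was at 0.56 (SE 0.20) and HIST1H2BJ at 1.35 (SE 0.62), each with an adjusted p of 0.999 in edgeR. DESeq2 called 0 of 18, beside 0.147% of its genes.

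The interaction is the GSI effect in cells with dTAG-13 less the GSI effect in cells without it, in log2 units. For HIST1H2AC it was -1.54 (SE 0.44), with an adjusted p of 1.0 in edgeR. For HIST1H2BJ it was 2.27 (SE 0.84), also with an adjusted p of 1.0. After adjustment, 0% of all genes passed in edgeR or DESeq2. So no member's GSI effect was shown to differ between cells with and without dTAG-13.

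Averaged over cells with and without dTAG-13, the GSI effect compares 4 libraries with 4. HIST1H2AC was the only member called, at 1.11 (SE 0.22, adjusted p 0.0101 in edgeR and 0.0187 in DESeq2), beside 3.38% of all genes called higher (529 of 15646) and 6.94% called in either direction. DESeq2 called 1 of 8 members, beside 7.94% of its genes. Its 4 libraries with GSI, at 1.34 to 2.11 CPM, lay above its 4 without, at 0.462 to 1.24. It was the only member whose 4 and 4 did not overlap in that direction, beside 7% of all genes, and no member was called lower, beside 3.56%. HIST1H2AG, at 0.73 (SE 0.26, adjusted p 0.116 in edgeR), and HIST2H2BE, at 0.64 (SE 0.28, adjusted p 0.196 in edgeR), were not called. The averaged dTAG-13 effect called no member, beside 0.499% of all genes (78 of 15646), with HIST1H2BK at 0.47 (SE 0.14, adjusted p 0.399) and HIST3H2A at -0.45 (SE 0.20, adjusted p 0.807) in edgeR. DESeq2 called 0 of 11, beside 0.755% of its genes.

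In the authors' deposited table of GSI against DMSO, HIST1H2AC has a log2 fold change of 1.886 with an SE of 0.6255 and a p of 0.002568, with no adjusted p. The authors' deposited table of the combination gives 1.438 with a p of 0.03483, and that of dTAG-13 gives 1.101 with a p of 0.1172, again without an adjusted p. Of the 90 rows, only 3, 3 and 1 have an adjusted p in the authors' deposited tables of GSI, the combination and dTAG-13. The lowest of these is 0.987, in the table of GSI.

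The call for HIST1H2AC rests on few reads, and 3 of the 4 libraries compared were each needed for it. Exact Poisson intervals (95%, counting error only) of its counts ran from 3.45 to 15.8 in DMSO replicate 1 and from 32.8 to 60.2 in GSI replicate 1, and the 4 intervals of DMSO and GSI did not overlap between the groups. Leaving out 1 library at a time kept the log2 fold change between 1.73 and 2.08. The adjusted p rose to 0.144 without DMSO replicate 1, to 0.149 without DMSO replicate 2 and to 0.0678 without GSI replicate 1, and was 0.0269 without GSI replicate 2. For the averaged GSI effect, leaving out DMSO replicate 1 raised the adjusted p to 0.0603. In each of these fits a group of 1 library was assumed to vary like the others. Over all genes, too, fewer were called in each of these fits than with every library included.

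**Figure D4:**
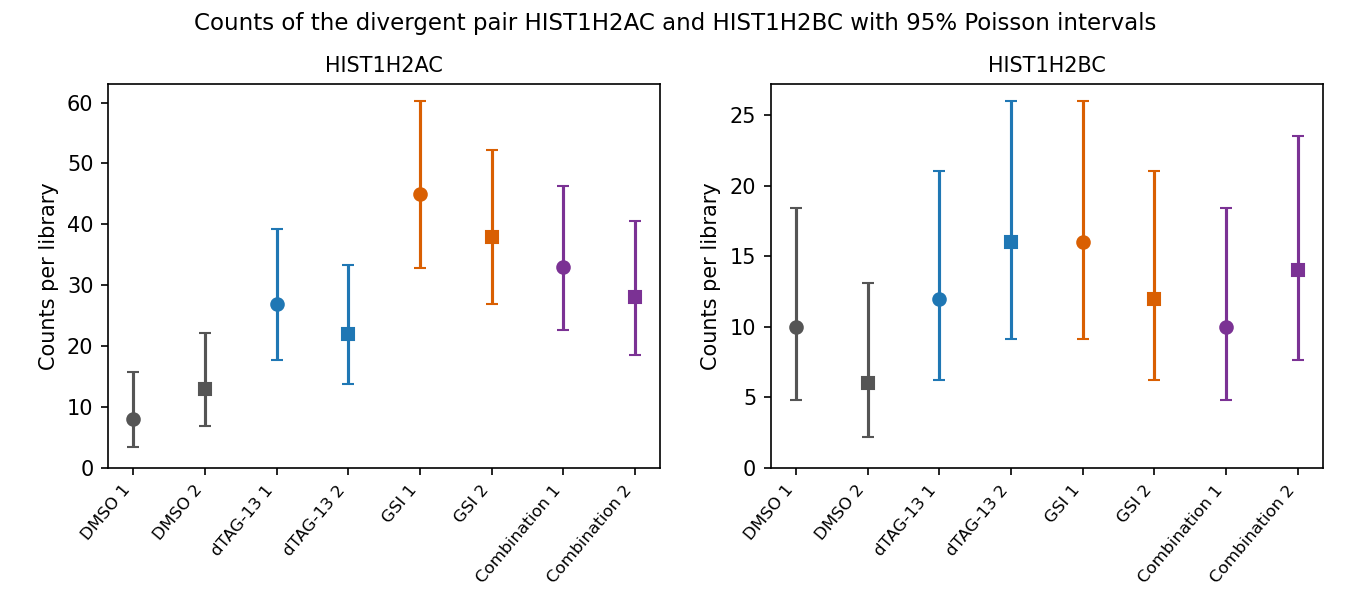
Counts per library (y axis) of HIST1H2AC and of HIST1H2BC, its divergent neighbour, with exact 95% Poisson intervals as bars, which cover counting error only. HIST1H2AC runs from 8 counts in DMSO replicate 1 to 45 in GSI replicate 1, while HIST1H2BC stays between 6 and 16.

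Many H2A and H2B genes lie head to head and share the stretch between their start sites, so the neighbour of HIST1H2AC was examined. The partners HIST1H2BC, HIST1H2AG, HIST1H2BJ and HIST2H2AC were chosen for this after their values were seen. RefSeq promoter windows (GRCh38.p14, 250 bases before to 50 after each start) were found for 62 of the 75 symbols, 65 windows in all, and 9 pairs of windows on opposite strands overlapped. In 3 pairs both genes were tested. HIST1H2AC changed by 1.88 with GSI, while HIST1H2BC was at 0.69 (SE 0.50, adjusted p 0.590). HIST1H2AG was at 0.55 and HIST1H2BJ at -1.45, and HIST2H2AC was at -0.11 and HIST2H2BE at 0.60, none of which passed the test. The difference between the 2 genes of a pair was not tested.

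The stretches between the start sites of the first 2 of these pairs are printed because 1 gene of each pair had the most extreme value with GSI. They are in GRCh38.p14 on the plus strand, 5′ to 3′, from RefSeq, and capitals mark 3 motifs on either strand: the TATA box (TATAAA), the CCAAT box (CCAAT) and the octamer (ATTTGCAT), which is bound by POU-domain factors such as OCT1.
HIST1H2BC to HIST1H2AC, chr6:26123927-26124171: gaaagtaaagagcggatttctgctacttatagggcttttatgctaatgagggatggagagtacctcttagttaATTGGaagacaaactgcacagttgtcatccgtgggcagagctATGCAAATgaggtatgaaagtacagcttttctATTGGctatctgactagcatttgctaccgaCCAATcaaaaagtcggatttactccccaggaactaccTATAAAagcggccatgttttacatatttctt
HIST1H2BJ to HIST1H2AG, chr6:27132796-27133042: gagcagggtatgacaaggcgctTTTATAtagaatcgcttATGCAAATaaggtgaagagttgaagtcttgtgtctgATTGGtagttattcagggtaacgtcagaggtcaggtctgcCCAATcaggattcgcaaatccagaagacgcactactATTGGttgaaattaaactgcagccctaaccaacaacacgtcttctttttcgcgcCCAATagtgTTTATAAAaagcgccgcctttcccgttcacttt
The first stretch is 245 bases long and holds 1 TATA box, 3 CCAAT boxes and 1 octamer. The second is 247 bases long and holds 3, 4 and 1, and 2 of its TATA boxes overlap within 1 run of capitals. A match is a description of these letters, not a bound site.

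Across all members' windows, the octamer was found in 35.38% (23 of 65), beside 1.774% of 35116 promoters of the same length. It was in 11 of 16 H2A windows and 11 of 16 H2B windows, in 1 of 14 H3 windows, and in no H1 or H4 window. A CCAAT box was found in 84.62% of member windows (55 of 65), beside 34.61% of all promoters, and it was in every H1, H2A, H2B and H3 window but in 3 of 13 H4 windows. A TATA box was found in 67.69% (44 of 65), beside 11.53%. Windows of divergent pairs overlap, and the 1 H3 window with an octamer, a second start of HIST1H3D, is the same window as that of HIST1H2AD, so windows are not independent of each other.

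Genes that act on histone mRNA were tested in lists chosen with earlier results of these data known. Of 27 tested genes of histone transcription and mRNA processing, 0 were called with GSI alone, with the averaged GSI effect or with dTAG-13, and their median log2 fold change with GSI was -0.06, beside 0.01 over all genes. SLBP, which binds the stem-loop, ranged from 156 to 195 CPM over the 8 libraries, with a fold change of -0.07 (SE 0.09) with GSI. NPAT, the coactivator that switches on histone genes at the start of S phase, was at 0.21 with GSI (SE 0.10, adjusted p 0.372). Of 30 tested genes of the G1/S transition and S phase, 0 were called with GSI alone, with a median of 0.06. With the averaged effect 1 of 30 was called, E2F2, at 0.32 (adjusted p 0.0157 in edgeR), with a median of 0.04. Over all genes, GSI alone called 1.74% in either direction, and the averaged effect called 6.94%, with 3.38% higher. The combination against DMSO called 1 of the 30 higher, beside 0.543% of all genes.

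Histones are carried to DNA by chaperones, and of 24 tested, 0 were called with GSI alone. With the averaged GSI effect, which called 3.38% of all genes higher and 3.56% lower, 3 were higher, namely ASF1B (0.24), which hands over H3 and H4, HJURP (0.25), which loads the centromeric H3, and ANP32E (0.23), which removes H2A.Z. Lower were 2, HIRA (-0.27), which deposits H3.3, and SSRP1 (-0.27), a subunit of FACT. The remaining 19 were not called. Among 10 tested replication-independent histone genes, 1 was higher with the averaged effect, the linker histone gene H1F0 at 0.35 (adjusted p 0.0108 in edgeR), and 0 were called with GSI alone. Of 18 mitosis genes, 0 were called with GSI alone and 1 was higher with the combination against DMSO, beside 0.543% of all genes. With the averaged effect 6 were higher, among them NUSAP1, TOP2A and TTK, and 0 lower, with a median of 0.17. The summed level of these 18 genes was 3660 to 3831 CPM in the 4 libraries without GSI and 4026 to 4304 CPM in the 4 with it, and the part of cell cycle composition in the change of HIST1H2AC was not tested.

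The pattern over libraries most like that of the tested members, by Pearson correlation over 8 libraries with their mean log2 CPM, was that of CDK2 (r = 0.983), a kinase of the G1/S transition. MAPK11 (r = 0.976), HEMGN (r = 0.971), ZNF430 (r = 0.970) and IFNAR2 (r = 0.966) came next. These are the highest among the 15646 tested genes with the tested members left out, over only 8 libraries that share groups and depth. They are given as a description.

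Treatments and cell identity were checked on the same libraries. All 5 NOTCH target genes checked were lower with GSI, and their summed level fell from 640.7 to 662.9 CPM in the 4 libraries without GSI to 223.9 to 278.1 CPM in the 4 with it. TAL1 transcript was at 145 to 166 CPM without GSI and 197 to 208 CPM with it, and since dTAG-13 acts on the protein, its RNA does not check the depletion. T-cell markers summed to 2595 to 2788 CPM in the 4 libraries without GSI and 2244 to 2615 CPM in the 4 with it. Of 9 tested, 1 was called higher and 4 lower with the averaged GSI effect. The 10 myeloid markers summed to 0.466 to 0.866 CPM. The sum over 10 B-cell markers ran from 227.6 to 277.8 CPM in the absence of GSI and from 325.8 to 479.6 CPM in its presence. HIST1H2AC shared this split by GSI. With dTAG-13 alone the B-cell sum, at 227.6 and 275.5 CPM, overlapped DMSO, at 277.8 and 244.3, while HIST1H2AC lay above DMSO. IGLL1 and CD79A made up nearly all of the B-cell sum, and 3 of the 4 tested markers were called higher with the averaged GSI effect. The B-cell genes MS4A1, CD22 and PAX5 were near 0, with 10 counts for MS4A1, 1 for CD22 and 1 for PAX5 over all 8 libraries. The part of these markers, T-cell and B-cell, in the result for HIST1H2AC was not tested.

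Near-identical coding sequences limit what reads can say about single histone genes. In GENCODE v29 transcripts, 13 of the 18 tested members shared no 100-base window with another member, and the highest share was 18.8%. HIST1H2AC, HIST1H2BC, HIST1H2BK and HIST1H2AG shared none. Of the 18 symbols at 0 in all rows, 6 shared more than 50% of their windows with other members, including 3 that shared every window, while 10 shared none. Reads from a shared window cannot be placed on 1 gene by sequence alone. Sharing did not always go with a count of 0. Of the 57 symbols with counts, 5 shared more than 50% of their windows, and HIST1H4K, with 25 counts, shared every window. The genes at 0 that shared most or all windows cannot be called silent. Exons of 3 tested members overlapped those of another gene: HIST1H3D those of AL031777.3 on the same strand, and HIST2H2BC and HIST2H2BD each other on opposite strands. The labels do not give the strand setting of the counting, so the values of that pair are uncertain. Strand cannot separate reads in the overlap of HIST1H3D, so its values are uncertain under any setting.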

How the data were processed

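RNA of 8 samples (4 treatments, 2 libraries each) was sequenced as strand-specific paired-end libraries with reads of 100 bases, per the labels. The authors deposited whole-number counts per gene and library, and, for each treatment against DMSO, a signal (the mean count after DESeq2's size factors), their own log2 fold changes with errors, a score (the fold change divided by its error) and p-values, raw and adjusted. Per the submitters' processing notes, the tools were STAR 2.5.2a, featureCounts and DESeq2 1.12.4, on the hg19 genome. The annotation, the strand setting and the treatment of reads with several positions are not stated there.

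Samples were grouped by their titles. TMM-scaled counts entered 1 edgeR 4.0.16 quasi-likelihood model of 4 groups (R 4.3.3, robust, 4 residual degrees of freedom) over the 15646 genes kept by filterByExpr, which held at least 99.891% of each library's counts. Tests were 2-sided, adjusted by Benjamini-Hochberg over all 15646, with a threshold of 0.05. Each edgeR SE was computed as the absolute log2 fold change divided by the square root of the test's F statistic. Such an SE is imprecise where the fold change is near 0. The test was checked on simulated data in which the changed genes were drawn at random from all tested genes. That check does not address the low counts of the members. CPM use TMM factors, and fold changes of lowly counted genes have wide errors. The members, lists and tests were chosen with earlier results of these data known. Members named with every library's value were those called, the 2 most abundant of each type and 5 known to be polyadenylated, plus divergent partners added after their values were seen. Symbols were matched to GENCODE v29, 42 rows by gene ID and 48 by symbol, for transcript models and stem-loops (GRCh38), and to RefSeq (GRCh38.p14) for promoters. Because the counts were made on hg19, these serve only for sequence and annotation.

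Alternatives were the DESeq2 1.42.0 Wald test, median-of-ratios size factors, testing without a filter, a replicate block, a fit of the compared libraries alone, leaving out each library in turn and, for sums, total counts in place of TMM.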

Additional observations from a re-analysis of the deposited data

How the results depend on the processing

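HIST1H2AC kept its positive log2 fold change with GSI under every alternative run, from 1.73 to 2.08. The number of members called higher with GSI was 0 to 1 when 1 library was left out (0 without either DMSO library or without GSI replicate 1) and for the averaged GSI effect 0 to 1 (0 without DMSO replicate 1). Fewer samples are part of how these fits are made. With no filter on low counts the combination called 1 member higher, HIST1H2AC, in place of 0. HIST1H2BK in the combination was reversed without combination replicate 2, at -0.02 in place of 0.28 (range -0.02 to 0.53 with 1 library left out), and the cause was not tested. Scaled to total counts without TMM, the summed CPM of H2A in the combination was 5.87, of H2B in dTAG-13 11.9 and of all types in the combination 24.4. The other 202 counts of called members and summed levels stayed within their spread or within 1.5 times. Of the single genes' values, 1643 kept their call without a counted reversal, 111 lost a call, 5 gained one and 1 reversed. A change of sign was not counted as a reversal where neither fit called the gene and the main value was smaller than its SE. Calls of the averaged GSI effect that were lost under at least 1 alternative were those of HIST1H2AC, E2F2, H1F0, ASF1B, HJURP, ANP32E, HIRA, SSRP1, NUSAP1, TOP2A, TTK and some cell type markers.

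Replicates numbered alike did not deviate together in every pair of groups (correlations of deviations from -0.0974 to 0.197), so the numbers were not taken to pair the samples. With the replicate block HIST1H2AC was at 1.87 with GSI (adjusted p 0.0055) and 1.10 averaged (adjusted p 0.00609), and no call of a member was lost or gained. The block raised the calls over all genes with GSI from 137 to 264 higher and from 135 to 295 lower. Replicates of a group differed by more than sampling noise, with a chi-square per degree of freedom of 4.62 to 14.0. Over all genes, GSI called 303 higher and 357 lower with no filter. Depth limits the members: standard errors with GSI ran from 0.21 to 1.07 on the log2 scale.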
